A study of Mus musculus with 6 samples.

Results

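Pericytes and smooth muscle cells, together called mural cells, were followed here through 8 genes that mark them: Rgs5, Pdgfrb, Cspg4 and Notch3 for pericytes, and Acta2, Tagln, Myh11 and Des for smooth muscle. The 8 genes were taken by symbol from a gene count table of 19342 genes, with the values of all 6 libraries, and all 8 had enough counts to be tested. The libraries were made from polyA-selected RNA of pancreatic islets, which had been freed from the pancreas with collagenase P, of mice aged 3 months that lacked the farnesoid X receptor (FXR, gene Nr1h4) or were its wild-type controls. FXR is a nuclear receptor for bile acids, and the comparison asked which islet transcripts differ in its absence. Each genotype, named FXR+/+ and FXR-/-, had 1 female library and 2 male libraries, called female 1, male 1 and male 2 after the labels. The knockout line was on a C57Bl/6 background, and no limit of the knockout to a tissue or cell type was described. The sources do not state if animals were pooled for a library, and p-values measure the spread between these libraries only.

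Pericytes wrap the capillaries that run through an islet and share a basement membrane with the endothelial cells, whereas smooth muscle cells ring the feeding arterioles and the larger vessels and ducts around the islet. Endothelial cells recruit pericytes through platelet-derived growth factor B, which acts on the receptor encoded by Pdgfrb, and Notch signalling between the 2 cell types keeps the mural cells mature. Contractile genes such as Acta2, Tagln and Myh11 are switched on by serum response factor with its partner myocardin, through a short sequence known as the CArG box. In islets pericytes adjust capillary diameter and blood flow and are a source of signals to the beta cells.

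The CArG box was searched in the 250 bases before the start site of the members with a RefSeq promoter entry, because it is the sequence that the contractile genes are known to share. Of these 5 members (Rgs5, Cspg4, Notch3, Acta2 and Des), Acta2 held the box, at 2 places. The search covered both strands and let 1 base of the A/T core be G or C, and 8.59% of 32851 mouse promoters held at least 1 such match. Both sites are shown 5′ to 3′ on the minus strand of chromosome 19 (GRCm38.p6) with the box in capitals, as they are the only matches among these members.
Acta2 upstream site, chr19:34255438-34255467: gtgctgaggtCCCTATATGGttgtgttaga
Acta2 downstream site, chr19:34255388-34255417: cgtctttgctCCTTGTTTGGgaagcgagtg
The boxes begin 84 and 34 bases before the start site of the RefSeq promoter entry. That entry starts downstream of the gene itself, which begins at position 34255585 in RefSeq and at 34255590 in GENCODE vM21. Both sites thus lie within the gene in either annotation, and within an annotated exon in GENCODE vM21. The inverted repeat of AGGTCA with a spacer of 1 base, a form of element that FXR can bind, was in none of the 5 windows and in 0.00609% of all promoters, which says only that these letters were absent from the windows.

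Between 20629306 and 30139235 counts were assigned to genes per library, and the 8 members took 0.0194 to 0.0269% of them. Nr1h4 was lower in every FXR-/- library, at 6.36 ± 1.09 CPM (counts scaled by TMM to a library of 1000000; SD, n = 3), than in the FXR+/+ libraries, at 13.3 ± 1.03 CPM (SD, n = 3). Insulin transcripts (Ins1 and Ins2) made up 17.5 to 23.9% of the counts, and 14 acinar markers of the exocrine pancreas made up 4.01 to 11.8%. The male 1 libraries of both genotypes held the highest acinar shares, 11.4% in FXR+/+ and 11.8% in FXR-/-, against 7.38% or less in the others. FXR-/- male 1 also stood apart in summed endothelial markers, at 1218 CPM against 604 to 819 CPM elsewhere.

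No mural gene passed the threshold of 0.05 on adjusted p between genotypes (edgeR quasi-likelihood fit), where 0% of the 14619 genes tested did so. Nr1h4, the targeted gene, did not pass either (log2 -1.07 ± 0.160 SE, edgeR adjusted p = 0.216). The lack of a call in this fit therefore does not show that a gene was unchanged. All 8 members had a log2 fold change of FXR-/- over FXR+/+ above 0, from 0.17 for Rgs5 to 0.76 for Des, beside 51.5% of all genes. The median was 0.32 for the members and 0.01 for all genes. The 3 libraries of a genotype overlapped those of the other for each of the 8 members, whereas they did not overlap for 15.4% of all genes (8.01% with FXR-/- above). An unadjusted p under 0.05 was reached by Notch3 and Des, 2 of 8, beside 10.3% of all genes in either direction, 6.18% with higher and 4.15% with lower values in FXR-/-. With the replicate block described next it was reached by Pdgfrb, Notch3, Myh11 and Des, 4 of 8, beside 16.1% of all genes. When the label number entered the fit as a replicate block instead of sex, 23 genes passed in edgeR (0.157%), and DESeq2 passed 170 (1.16%), with none of the 8 members among either. Nr1h4 passed in both, at an adjusted p of 0.0440 in edgeR with the block and 8.59e-05 in DESeq2. The 8 positive differences became 6 without FXR-/- male 1, when Rgs5 and Cspg4 fell on the other side of 0, and 7 without both male 1 libraries. In bulk RNA, a change in the number of cells of a type and a change in RNA per cell cannot be told apart.

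**Figure D1:**
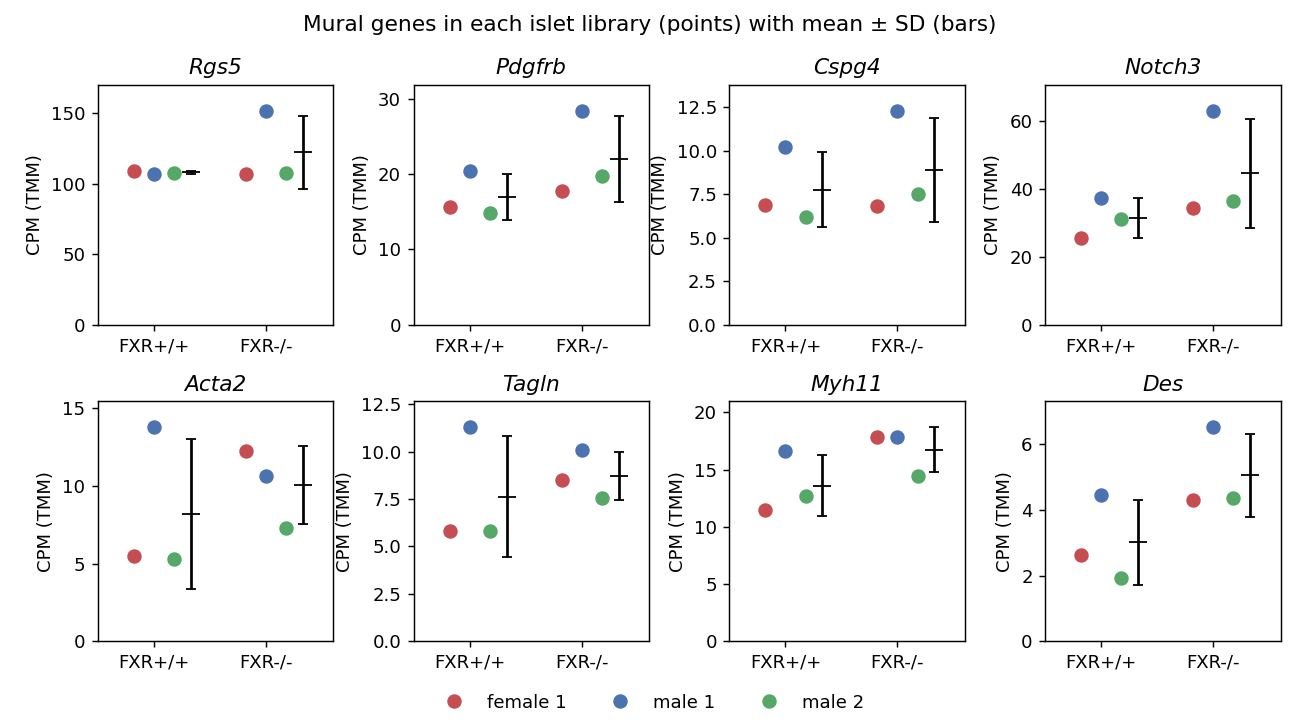
TMM-scaled CPM (vertical axis, from 0) of the 8 mural genes in each islet library of the 2 genotypes (horizontal axis), with 1 coloured point per library and the mean ± SD of 3 libraries as bars. Rgs5 lay between 107 and 109 CPM in 5 libraries and at 152 CPM in FXR-/- male 1, and the genotypes overlapped for every gene.

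Rgs5 encodes a regulator of G-protein signalling that is a hallmark transcript of pericytes (chr1:169655501-169695813, plus strand, GRCm38 RefSeq positions, as for the other members). It was at 109, 107 and 108 CPM in FXR+/+ female 1, male 1 and male 2, and at 107, 152 and 108 CPM in the FXR-/- libraries in the same order. The other 5 libraries were nearly level, at 108 ± 0.933 CPM (SD, n = 5), and FXR-/- male 1 was 1.41-fold above their mean. The coefficient of variation among the FXR+/+ libraries was 1.09%, below the 1.92% that counting error alone gives over the 6 libraries on average. The difference between genotypes was 0.17 ± 0.136 (log2 ± SE; edgeR adjusted p = 0.629), a 1.13-fold ratio with a 95% interval of 0.903 to 1.40. With 1 of the other libraries left out it was 0.13 to 0.28. Without FXR-/- male 1 it was -0.015, and the summed endothelial markers were highest in that same library; their part in the Rgs5 value was not tested.

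Pdgfrb encodes the receptor for platelet-derived growth factor B through which pericytes are recruited to capillaries (chr18:61045127-61085067, plus strand). It was at 15.7, 20.5 and 14.8 CPM in the FXR+/+ libraries and at 17.8, 28.4 and 19.8 CPM in the FXR-/- libraries. In each labelled pair the FXR-/- library was higher, by 1.14-, 1.39- and 1.33-fold in female 1, male 1 and male 2, but FXR+/+ male 1 exceeded FXR-/- female 1 and male 2. The difference was 0.36 ± 0.179 (log2 ± SE; edgeR adjusted p = 0.497), and leaving out 1 library at a time gave 0.17 (without FXR-/- male 1) to 0.48, with 0.21 without FXR+/+ male 2.

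Cspg4 encodes the proteoglycan NG2, a surface protein of pericytes that is also made by some glial precursors and smooth muscle cells (chr9:56865104-56899870, plus strand). It was at 6.86, 10.2 and 6.18 CPM in the FXR+/+ libraries and at 6.84, 12.3 and 7.49 CPM in the FXR-/- libraries. Both male 1 libraries were the highest of their genotype, and the female libraries were almost equal. The difference of 0.18 ± 0.252 (log2 ± SE; edgeR adjusted p = 0.787) became -0.07 without FXR-/- male 1, -0.03 without FXR+/+ male 2 and -0.09 with acinar RNA as a term, and 0.38 without FXR+/+ male 1 and 0.34 without FXR-/- male 2.

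Notch3 encodes the Notch receptor characteristic of mural cells (chr17:32120820-32166896, minus strand). It was at 25.7, 37.5 and 31.1 CPM in the FXR+/+ libraries and at 34.4, 63.2 and 36.5 CPM in the FXR-/- libraries. FXR-/- male 1 was 1.91-fold above the mean of the other 5 libraries, and each FXR-/- library exceeded its FXR+/+ partner, by 1.17-fold in male 2 to 1.69-fold in male 1. The difference of 0.50 ± 0.193 (log2 ± SE) had the lowest adjusted p of the 8 genes, 0.461 in edgeR and 0.120 with the replicate block. It was 0.23 without FXR-/- male 1 and 0.31 with the acinar term. An antisense gene, Gm17276, overlaps 488 of its exonic bases, and as no strand setting of the counting was given its reads could not be separated.

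Acta2 encodes smooth muscle alpha-actin, the contractile actin of smooth muscle, some pericytes and activated stellate cells (chr19:34240336-34255585, minus strand; its CArG boxes are printed above). It was at 5.50, 13.8 and 5.27 CPM in the FXR+/+ libraries and at 12.3, 10.6 and 7.32 CPM in the FXR-/- libraries. The highest library was FXR+/+ male 1, so that the male 1 pair ran against the other pairs, with a ratio of 0.771 beside 2.23 in female 1 and 1.39 in male 2. The difference of 0.33 ± 0.400 (log2 ± SE; edgeR adjusted p = 0.758) had the widest interval of the 8 genes, -0.61 to 1.26. It was -0.08 in the males alone, 0.93 without FXR+/+ male 1, 0.60 without FXR-/- male 2, 0.09 without FXR+/+ male 2 and 0.0048 with the acinar term.

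Tagln encodes transgelin, an actin-binding protein of smooth muscle (chr9:45929628-45936058, minus strand). It was at 5.79, 11.3 and 5.80 CPM in the FXR+/+ libraries and at 8.50, 10.1 and 7.57 CPM in the FXR-/- libraries. As for Acta2, FXR+/+ male 1 was the highest library and the other FXR+/+ libraries were the lowest. The difference was 0.22 ± 0.267 (log2 ± SE; edgeR adjusted p = 0.759), and -0.04 with acinar RNA as a term. It was 0.58 without FXR+/+ male 1, 0.011 without FXR+/+ male 2, 0.05 without either female library, 0.14 without FXR-/- male 1 and 0.38 without FXR-/- male 2. The antisense gene Gm48529 overlaps 1241 of its exonic bases, or 62.4%, and the protein-coding gene Pcsk7 on the opposite strand overlaps 108. The Tagln counts may therefore hold reads of these genes too.

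Myh11 encodes the smooth muscle myosin heavy chain, the most specific protein of mature smooth muscle (chr16:14194527-14292188, minus strand). It was at 11.5, 16.6 and 12.7 CPM in the FXR+/+ libraries and at 17.9, 17.9 and 14.5 CPM in the FXR-/- libraries. Only FXR+/+ male 1 reached into the FXR-/- range, and each FXR-/- library exceeded its partner, by 1.08- to 1.56-fold. The difference was 0.31 ± 0.167 (log2 ± SE; edgeR adjusted p = 0.524), and it was 0.47 without FXR+/+ male 1, 0.14 without either female library and 0.19 with the acinar term.

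Des encodes desmin, the intermediate filament of muscle cells that pericytes also carry (chr1:75360292-75368579, plus strand). It was at 2.64, 4.46 and 1.92 CPM in the FXR+/+ libraries and at 4.29, 6.52 and 4.37 CPM in the FXR-/- libraries. FXR+/+ male 1 lay just above FXR-/- female 1 and male 2, and the other FXR+/+ libraries lay below all FXR-/- libraries. The difference of 0.76 ± 0.323 (log2 ± SE; edgeR adjusted p = 0.481), a 1.70-fold ratio, had an adjusted p of 0.125 with the block. It was 1.14 without FXR+/+ male 1, 0.45 without FXR+/+ male 2 and 0.42 with the acinar term. Des had the largest of the 8 differences in gene counts, but from summed exon counts it gave 0.43, below Notch3 at 0.49 and Pdgfrb at 0.44. Des was also the least counted of the 8, with 547 counts in all libraries together. An antisense gene, Gm15179, overlaps 220 of its exonic bases, or 5.86%, and its reads could not be separated.

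All 3 pairs were higher in FXR-/- for Pdgfrb, Notch3, Myh11 and Des, 4 of 8 members beside 20.4% of all genes. FXR-/- male 1 was the highest of the 6 libraries for Rgs5, Pdgfrb, Cspg4, Notch3 and Des, 5 of 8 beside 24.7% of all genes. When FXR+/+ male 1 was left out, Pdgfrb, Notch3, Acta2, Tagln, Myh11 and Des no longer overlapped between genotypes, 6 of 8, but neither did 35.2% of all genes in these 5 libraries.

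**Figure D2:**
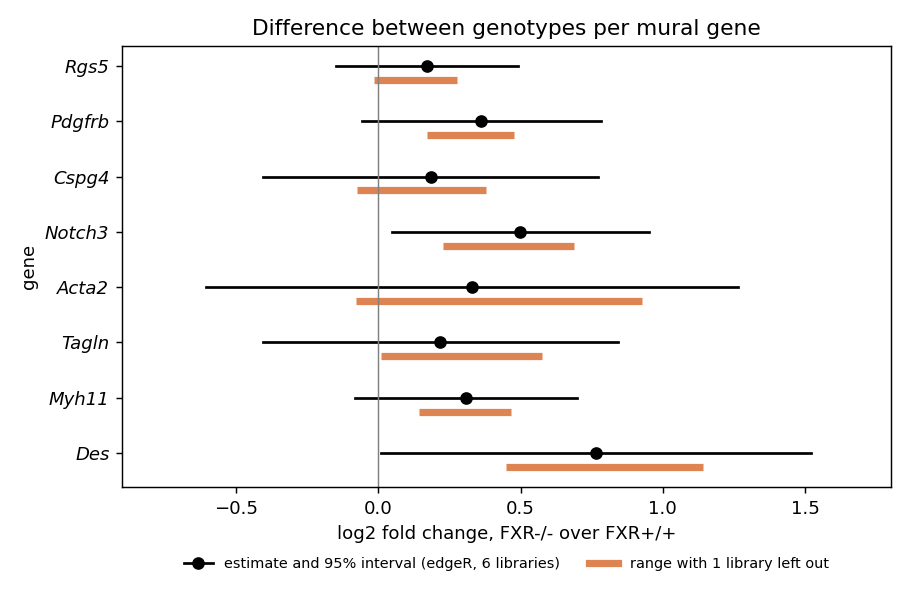
Log2 fold change of FXR-/- over FXR+/+ (horizontal axis) for each mural gene (vertical axis), with the 95% interval of the edgeR fit on 6 libraries in black and the range of estimates with 1 library left out in orange. All 8 estimates lie above 0, and the orange ranges of Rgs5, Cspg4 and Acta2 cross it.

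Levels between genes were compared as CPM per kilobase of the longest basic GENCODE vM21 transcript. Rgs5 was by far the most abundant mural transcript of FXR+/+ islets, at 26.4 ± 0.288 CPM per kilobase (SD, n = 3). Tagln (4.78 ± 1.99), Acta2 (4.02 ± 2.38), Notch3 (3.92 ± 0.735) and Pdgfrb (3.13 ± 0.560) followed in CPM per kilobase, and no neighbours among these 4 differed beyond their spread. Myh11 at 2.07 ± 0.409 CPM per kilobase lay below them, and Des (0.993 ± 0.431) and Cspg4 (0.954 ± 0.265) were lowest and did not differ beyond their spread. In FXR-/- islets Rgs5 was again first, at 29.9 ± 6.28 CPM per kilobase, and Notch3 (5.58 ± 2.00), Tagln (5.47 ± 0.800) and Acta2 (4.95 ± 1.24) followed without differing beyond their spread. With exon lengths pooled over all transcripts, the FXR+/+ order of Tagln, Acta2 and Notch3 was Notch3 at 3.89, Tagln at 3.84 and Acta2 at 3.72 CPM per kilobase. These levels use whole-gene counts, of which the listed exons held 7.26% for Acta2, 14.5% for Myh11 and 84.6% for Rgs5. Rgs5 also had the most counts in listed exons, but Acta2 had the fewest of the 8 members. The order below Rgs5 therefore depends on which counts are used.

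How alike the members were across the 6 libraries is described by Pearson's r of log2 CPM, over libraries that share genotype, sex and acinar content. Pairs within and between the cell types overlapped in r. The closest pairs were Pdgfrb with Notch3 (r = 0.951), Acta2 with Tagln (r = 0.943) and Pdgfrb with Cspg4 (r = 0.930). Rgs5 was near the other pericyte genes (r = 0.752 to 0.866) and far from Acta2 (r = 0.218), Tagln (r = 0.386) and Myh11 (r = 0.424). Des, placed with smooth muscle, was as near to Pdgfrb (r = 0.920) as to any contractile gene, with r = 0.852 to Tagln.

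Of 13528 genes with a mean of at least 1 CPM, the 10 whose profile was most like the mean of the pericyte members were Ocel1, Gja1, Dlc1, Id4, Nek11, Inhbb, Cd93, Unc5a, Ackr3 and Irf1 (r = 0.988 to 0.996 over 6 libraries). The pericyte mean peaked in FXR-/- male 1, so these genes share that peak by how they were chosen. Inhbb, an inhibin and activin subunit, was at 50.6 CPM there and at 4.56 to 12.2 CPM elsewhere. Cd93, an endothelial receptor, was at 65.3 CPM there and at 21.5 to 33.5 CPM elsewhere. The 10 genes most like the smooth muscle members were Mustn1, S1pr3, Fads3, Acacb, Ppp1r14a, Aqp1, Tmem150a, Itpr3, Irak2 and Vim (r = 0.982 to 0.998). Ppp1r14a encodes an inhibitor of myosin phosphatase in smooth muscle and S1pr3 a sphingosine phosphate receptor. S1pr3 was at 3.88, 8.52 and 3.60 CPM in the FXR+/+ libraries and at 7.69, 9.25 and 5.63 CPM in the FXR-/- libraries. Such rankings from 6 libraries leave many genes near the top.

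The summed level of the 4 pericyte members was 158, 175 and 160 CPM in the FXR+/+ libraries and 166, 256 and 171 CPM in the FXR-/- libraries. Rgs5 alone made up 59.4 to 69.4% of it. The summed level of the 4 smooth muscle members was 25.4, 46.1 and 25.7 CPM in the FXR+/+ libraries and 43.0, 45.1 and 33.7 CPM in the FXR-/- libraries. Pericyte RNA thus peaked in 1 library, while smooth muscle RNA was low in FXR+/+ female 1 and male 2 and higher in the other 4.

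The 12 endothelial markers, which share the capillaries with the pericytes, summed to 646, 728 and 604 CPM in FXR+/+ and to 757, 1218 and 819 CPM in FXR-/-, without overlap. All 12 had positive log2 fold changes (median 0.55), none was called in edgeR, and DESeq2 called Plvap (adjusted p = 0.00914) and Emcn (adjusted p = 0.00958). Relative to this sum, the pericyte members were lower in every FXR-/- library, at 0.220, 0.210 and 0.209 CPM per endothelial CPM against 0.244, 0.241 and 0.265 in FXR+/+. Of the single members Rgs5, Pdgfrb and Cspg4 did so without overlap, 3 of 8, beside 39.1% of all genes, which is near the members' share. Rgs5 per 1000 endothelial CPM was 169, 147 and 179 in FXR+/+ and 142, 125 and 132 in FXR-/-. Without Rgs5 the pericyte sum per 1000 endothelial CPM overlapped, at 74.7, 93.6 and 86.3 in FXR+/+ and 78.0, 85.3 and 77.9 in FXR-/-. Smooth muscle members per endothelial CPM overlapped, at 0.0393, 0.0633 and 0.0426 in FXR+/+ and 0.0567, 0.0370 and 0.0412 in FXR-/-.

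Markers of other tissues also differed between libraries. The 10 fibroblast and stellate markers, of which 9 were tested, summed to 50.1, 147 and 36.3 CPM in FXR+/+ and to 124, 139 and 134 CPM in FXR-/-, low in the same FXR+/+ libraries as Acta2 and Tagln. All 9 had positive log2 fold changes (median 1.00), none called in edgeR and Col6a3 called by DESeq2 (adjusted p = 0.0200), and among them Col3a1 ran from 11.7 to 51.2 CPM. The 14 acinar markers ranged from 38116 to 116269 summed CPM in FXR+/+ and from 54628 to 131696 in FXR-/-, and the 8 macrophage markers from 111 to 150 and from 148 to 175. Over the 6 libraries the highest r with a summed level was 0.988, for Des with macrophage markers. Next were Pdgfrb (0.962) and Notch3 (0.942) with endothelial, Cspg4 (0.947) with acinar and Des (0.935) with fibroblast markers. Other values were lower: Acta2 had r = 0.856 with fibroblast, 0.491 with endothelial and -0.381 with beta cell markers. These points share libraries and scaling. The part of these cells in the mural values was not tested. Striated muscle also makes desmin. Of its 13 listed genes 12 were counted and only 5 had enough counts to be tested. The summed level of those 5 was 7.63 to 8.83 CPM in FXR+/+ and 4.78 to 7.29 CPM in FXR-/-. The part of striated muscle in the Des values was not tested.

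**Figure D3:**
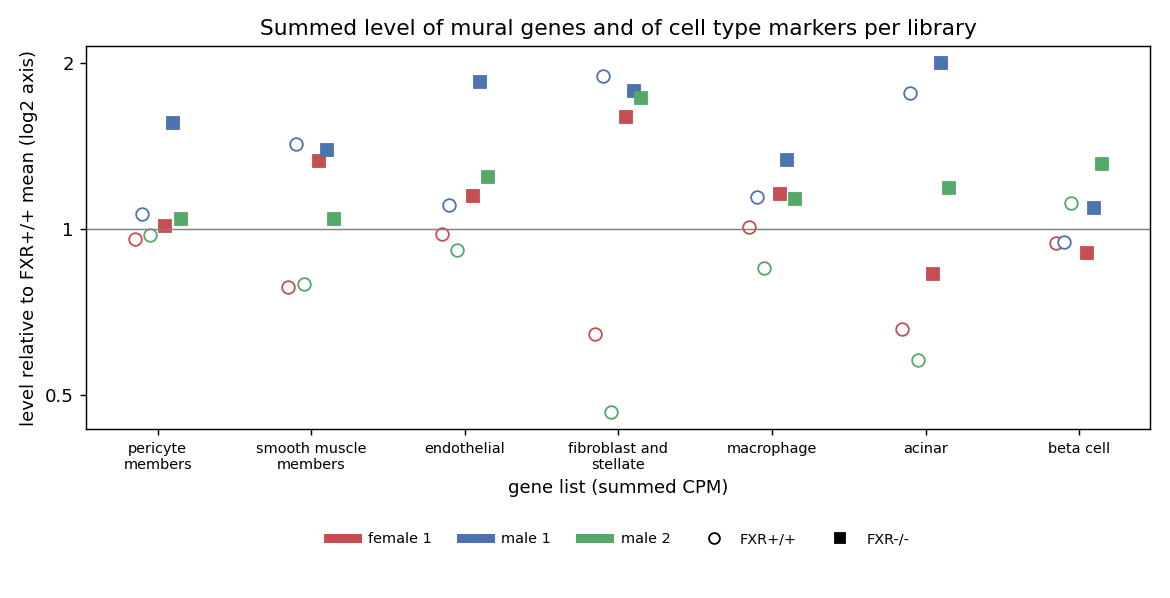
Summed CPM of the pericyte and smooth muscle members and of marker lists for other islet and pancreatic cells in each library, relative to the FXR+/+ mean (vertical axis, log2 scale), with open circles for FXR+/+ and filled squares for FXR-/- and a colour per labelled pair. Endothelial markers do not overlap between genotypes, and both male 1 libraries are the highest in acinar markers.

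The members were also compared between sexes in the same fit. All 8 were lower in the female libraries, with log2 differences of female over male from -0.09 for Myh11 to -0.47 for Notch3, but with the library size alone as scaling 3 of the 8 were higher in females. Notch3 averaged 30.1 CPM in the 2 female libraries and 42.1 CPM in the 4 male libraries. None passed (lowest edgeR adjusted p = 0.677, for Notch3), beside 8 genes or 0.0547% of all genes, and none reached an unadjusted p under 0.05, beside 7.49% of all genes. A term for the difference between genotypes differing by sex was called for 0 genes, and its largest value among the members was 1.24 for Acta2 (log2; edgeR adjusted p = 1.00). None of the 8 reached an unadjusted p under 0.05 for it, beside 1.48% of all genes, in a fit with 1 female library per genotype.

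The exon counts gave a second view of the same libraries. The deposited exon table lists 80 exons of the 8 genes, numbered along the chromosome, of which 13 had enough counts. None was called, beside 0.0185% of 26981 exons in edgeR and 0.486% with the replicate block, and 11 of the 13 had a positive log2 fold change. An unadjusted p under 0.05 was reached by 3 of the 13, of Pdgfrb and Notch3, beside 7.8% of all exons. The well-counted 3′ exon of Rgs5 (chr1:169692179-169695813, 13749 counts) gave 0.17 ± 0.153 (log2 ± SE), the same value as the whole gene. The 3 Notch3 exons gave 0.39, 1.03 and 0.82, and the 3′ exon of Pdgfrb gave 0.48 ± 0.173 with an edgeR adjusted p of 0.621.

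Acta2 differed from the other members in how its counts were spread. The exons listed for it held 7.26% of its gene counts, where the median gene had 50.7% and 4.31% of genes had as low a share or lower. The only exon tested (chr19:34240336-34241810), which holds its 3′ untranslated region, had 83 counts and a log2 fold change of -0.09 ± 0.457 (SE), and its listed exons summed gave -0.13, opposite to the gene count. Of the 50-base stretches of its transcripts, 7 of 2146 are also found in actin genes or pseudogenes such as Actg1. How reads were assigned to exons was not given, and the cause of this low share was not tested. Myh11 held 14.5% of its counts in listed exons and Rgs5 84.6%.

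**Figure D4:**
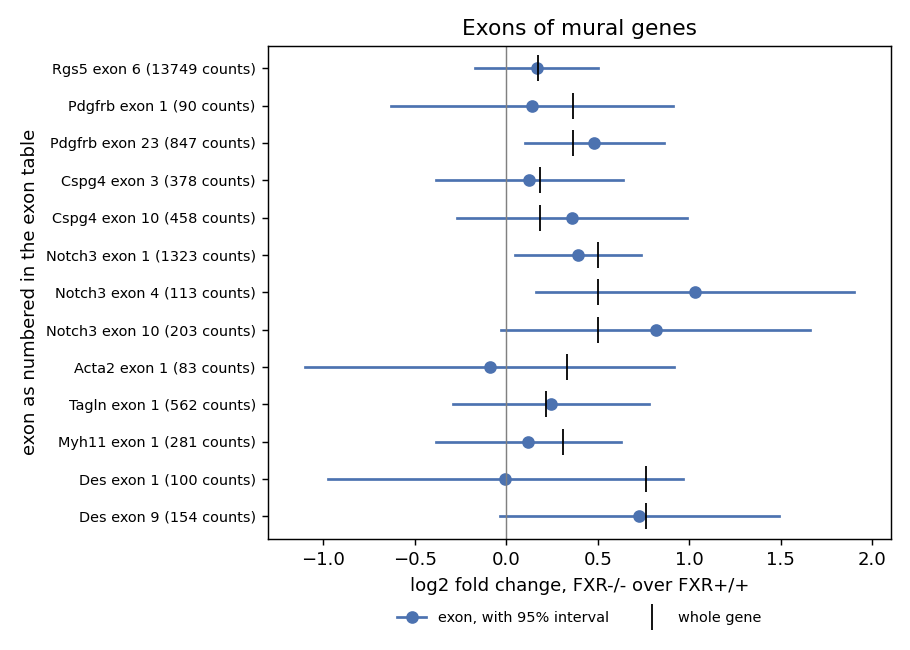
Log2 fold change of FXR-/- over FXR+/+ (horizontal axis) with 95% interval for each of the 13 tested exons of mural genes (vertical axis, with the total counts of 6 libraries), and the whole-gene value as a black tick. The exon of Acta2 and exon 1 of Des lie at or below 0, and the other 11 lie above it.

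Further genes of these cells and of their signalling were read from lists, and none was called in edgeR or with the block. Of 17 other pericyte genes tested, 15 had positive differences (median 0.27), among them Mcam, an adhesion molecule of vessels (25.6, 39.9 and 25.9 CPM in FXR+/+ against 30.7, 48.3 and 32.7 in FXR-/-; log2 0.29 ± 0.193, SE), and Rgs4, a relative of Rgs5 (0.32 ± 0.194). Anpep, an aminopeptidase found on pericytes and on many epithelia, went the other way without overlap, from 128, 138 and 124 CPM to 83.7, 106 and 110 CPM (-0.39 ± 0.096; edgeR adjusted p = 0.336, DESeq2 adjusted p = 0.0321). Pde5a, which degrades cyclic GMP, overlapped (-0.15 ± 0.237). Of 17 other smooth muscle genes 12 had positive differences (median 0.22), and the most abundant, Tpm1, Flna, Csrp1 and Cald1, gave -0.04, 0.13, 0.36 and 0.22 (log2).

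Of 7 genes that control contractile genes, activators and repressors together, 5 had positive differences (median 0.05). Srf, serum response factor, was at 66.2, 97.6 and 52.2 CPM in FXR+/+ and 62.2, 102 and 65.9 CPM in FXR-/- (log2 0.08 ± 0.246, SE). Klf4, which represses contractile genes and also answers tissue handling, ran from 10.8 to 78.3 CPM over the libraries, with 0.05 ± 0.656 and pair ratios of 0.481, 1.11 and 4.02 in female 1, male 1 and male 2. Mkl2 (-0.13) and Foxo4 (-0.03) were the other abundant members of this list.

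In the platelet-derived growth factor pathway 4 of 6 genes had positive differences (median 0.09). Pdgfb, the endothelial ligand, was at 14.9, 19.5 and 12.6 CPM in FXR+/+ and 15.3, 15.5 and 15.9 CPM in FXR-/- (log2 0.00 ± 0.164, SE), and Pdgfa gave -0.08 ± 0.115. Pdgfd (0.10) and the receptor-like gene Pdgfrl (0.07) were equally close to 0. The highest values, chosen after they were seen, were those of Pdgfc (1.01 ± 0.418) and of Pdgfra (1.35 ± 0.862), the receptor of fibroblasts. In the Notch pathway 10 of 13 genes had positive differences (median 0.18). Notch1 did not overlap, at 71.7, 75.0 and 65.5 CPM against 86.3, 90.2 and 77.9 CPM (0.26 ± 0.092; edgeR adjusted p = 0.450), while Jag2, a ligand, gave 0.03, Rbpj, the DNA-binding partner of Notch, gave -0.17, and Notch4 gave 0.36.

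The transforming growth factor beta and angiopoietin genes, which link endothelial and mural cells, held 10 positive differences of 12 (median 0.49). An edgeR unadjusted p under 0.05 was reached by 8 of the 12, all higher in FXR-/-, beside 6.18% of all genes in that direction and 10.3% in either. Tek and Tie1 of this list are also among the 12 endothelial markers above, so the 2 lists are not separate evidence. Eng, endoglin of endothelial cells, was at 44.5, 52.6 and 47.9 CPM in FXR+/+ and 56.9, 104 and 65.9 CPM in FXR-/- (log2 0.62 ± 0.173, SE; edgeR adjusted p = 0.399). Tie1 (0.51 ± 0.177) and Acvrl1 (0.48 ± 0.177) are further endothelial receptors of this list, and Tgfbr1 gave -0.23 ± 0.130. Among the endothelial markers Plvap, Kdr, Flt1 and Esm1 were the most abundant, with 0.69, 0.30, 0.42 and 0.32.

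Relatives of Rgs5 and of Acta2 gave no common direction. Of 14 genes of the RGS family 7 had positive differences (median -0.01), and the most abundant, Rgs2, was at 139, 212 and 214 CPM in FXR+/+ and 72.6, 215 and 72.4 CPM in FXR-/- (log2 -0.69 ± 0.340, SE; edgeR adjusted p = 0.496). Rgs9 (0.01), Rgs16 (0.14) and Rgs11 (-0.22) were next in level. Rgs3, named after its values were seen, was the family member that DESeq2 called (adjusted p = 0.00332; edgeR adjusted p = 0.225), without overlap, at 40.2, 45.1 and 43.9 CPM in FXR+/+ and 63.2, 61.6 and 56.0 CPM in FXR-/- (0.49 ± 0.089). Of 5 actin genes tested 2 had positive differences, and Acta2 itself (0.33) was counted among both the 5 and the 2. The non-muscle actins Actg1 and Actb gave 0.00 and 0.02, with Acta1 of skeletal muscle at -0.13.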

How the data were processed

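The authors deposited raw counts per gene and per exon for 6 islet libraries; per the labels, polyA RNA was fragmented, copied with random hexamers and sequenced by Illumina. HISAT is named in the submitters' processing notes, with no version, and counting rule, strand setting and genome build are not given in the sources used here. Of the 80 member exons, 72 have the start and end of an exon of GENCODE vM21 (GRCm38). The authors' tables of fold changes, p-values and q-values were not used. From the exon file 77 repeated lines were dropped, and 31 genes had no symbol.

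Counts were filtered with filterByExpr (minimum count 10, total 15), scaled by TMM and tested with edgeR 4.0.16 (limma 3.58.1, R 4.3.3) quasi-likelihood fits with genotype and sex, on 14619 genes and 26981 exons, with Benjamini-Hochberg adjustment at 0.05. DESeq2 1.42.0, other scalings, filters and terms and each library left out were alternatives. Values are CPM with SD, and r used log2 CPM with a prior count of 2. Scripts were tested on simulated data. Depth was 20629306 to 30139235 gene counts. Libraries with the same label number (female 1, male 1, male 2) were taken as pairs, though the labels give only a number. Their deviations from the genotype means correlated at 0.361, 0.367 and 0.323, against at most 0.0200 for different numbers. Such deviations sum to 0 within a genotype, which lowers the values for different numbers, and the female pair also shares sex. The correlations therefore do not establish that the libraries were paired.

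The members and lists were chosen with earlier results of these data known. Named genes were the 8 members, Nr1h4, list genes with adjusted p under 0.05 (with or without the block; none), the 4 most abundant genes of a list, and the 10 most like each profile. Genes named outside this rule (untested low-count genes, Pdgfc, Pdgfra, Rgs3, Emcn and Mafa) were chosen after their values were seen. Promoter sequences and gene positions are from RefSeq (GRCm38.p6), where 5 of 8 members had a promoter entry.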

Additional observations from a re-analysis of the deposited data

Results flagged for a closer look

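Cspg4 was lower in FXR-/- in the female pair, with a log2 ratio of -0.0035, and higher in both male pairs, with 0.27 in male 1 and 0.28 in male 2. The female ratio is far smaller than the spread between libraries, and the term for a genotype difference that differs by sex was -0.28 (log2; edgeR adjusted p = 1.00), with 1 female library per genotype.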

How the results depend on the processing

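No mural gene was called under any of the alternatives, and between 6 and 8 of the 8 had a positive log2 fold change. All 8 stayed positive under each change of scaling, filter, dispersion or tool on the gene counts of all 6 libraries. The median over members, 0.32, was 0.13 with a term for acinar RNA, 0.23 with the library size alone (where the median of all genes was -0.086), and 0.18 to 0.52 with 1 library left out. Cspg4 (-0.094) and Tagln (-0.037) turned negative with the acinar term, and Acta2 in males alone (-0.078) and from summed exon counts (-0.13). With 1 library left out Rgs5 ranged from -0.015 to 0.28, Cspg4 from -0.075 to 0.38 (negative without FXR+/+ male 2, at -0.033, or FXR-/- male 1) and Acta2 from -0.078 to 0.93 (negative without either female library). With sex in the fit, leaving out either female library leaves the same comparison as the males alone, so these are not separate alternatives. Without both male 1 libraries, an alternative added after seeing the data, Rgs5 was -0.023 and 235 genes were called. Members that did not overlap between genotypes numbered 0 to 6 with 1 library left out, 6 without FXR+/+ male 1 (beside 35.2% of all genes) and 1, Myh11, without FXR-/- male 2 (beside 23.6%). The log2 ratio of smooth muscle members per endothelial CPM, -0.10, ranged from -0.28 to 0.11, and was positive without FXR+/+ male 1 (0.11) or FXR-/- male 1 (0.031).

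The replicate block gave 23 called genes and 131 exons in place of 0 and 5, and changed no call of a member. Other counts of called genes were 170 by DESeq2, 7 with the acinar term and 4 from summed exon counts. Sex gave 8 called genes, 83 by DESeq2 and 5 to 14 with 1 library left out, the interaction 0 and 3 by DESeq2, and exons 5, 2 with at least 10 counts in every library and 1 to 17 with 1 library left out. At 547 to 16255 counts per gene, the spread between libraries exceeded counting error for every member, except for Rgs5 within FXR+/+.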

Other observations

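Several genes of mature smooth muscle and its control were too low to test. Cnn1, calponin of smooth muscle, was counted 1, 12 and 4 times in FXR+/+ female 1, male 1 and male 2 and 14, 3 and 0 times in the same order of FXR-/-, and Actg2, the enteric smooth muscle actin, had 0, 17 and 0 against 3, 3 and 1. Both were high in FXR+/+ male 1, where Acta2 and Tagln also peaked, and Cnn1 was as high in FXR-/- female 1, the FXR-/- library with the most Acta2. Myocd, myocardin, had 34 counts in all 6 libraries together, Pln 31 and Tbx18, a pericyte transcription factor, 1.

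Other cells of the islet preparation gave these values. All 8 glial genes had positive log2 fold changes (median 0.58) and summed to 15.6 to 24.3 CPM in FXR+/+ and 24.2 to 26.6 CPM in FXR-/-. Ductal genes held 5 positive differences of 6 (median 0.48) and macrophage genes 6 of 8 (median 0.34). Acinar genes held 12 of 14 (median 0.42), beta cell genes 6 of 10 (median 0.07) and alpha and delta cell genes 7 of 8 (median 0.14). Immediate early and stress genes held 9 of 10 (median 0.18) and ranged from 409 to 5335 summed CPM in FXR+/+ and from 1233 to 6795 in FXR-/-. Of the 2 mesothelial genes tested Msln gave -0.65 ± 0.156 (log2 ± SE; edgeR adjusted p = 0.334, DESeq2 adjusted p = 0.0139) and Krt8 0.12. Of the 5 striated muscle genes tested 1 had a positive difference (median -0.13). No gene of these lists was called in edgeR, and DESeq2 called 1 gene each of the mesothelial, ductal (Spp1, adjusted p = 0.00159) and beta cell lists (Mafa, adjusted p = 9.68e-11).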
